A study of Mus musculus with 3 samples.

Results

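Genes of the Wnt and Hedgehog signalling pathways were examined in samples sorted for renin-producing cells of the mouse kidney. The members were the probe sets whose platform annotation gave 1 gene symbol, where that symbol began with Wnt plus a digit, Fzd, Sfrp, Dkk plus a digit, Axin, Rspo, Lgr, Ptch plus a digit or Gli plus a digit, or was Lrp5, Lrp6, Ctnnb1, Lef1, Tcf7, Tcf7l1, Tcf7l2, Smo, Shh, Ihh, Dhh or Hhip. This rule found 63 of 35557 probe sets, which stood for 62 of 19938 genes, 53 in the Wnt group and 9 in the Hedgehog group. Tcf7 was not analysed here. Fzd10os met the rule by its name and is a transcript named for lying opposite Fzd10, not a receptor gene.

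The series held 1 group of 3 single-colour Affymetrix arrays, replicates 2, 4 and 5. Each array carried amplified RNA of YFP-positive cells sorted from the renal cortex of adult male Ren1c-YFP mice, a transgenic line of unspecified strain in which yellow fluorescent protein reports the renin gene. For 2 weeks all mice had drunk water with captopril at 0.5 mg/ml, which blocks the enzyme that makes angiotensin II, and had eaten low-salt chow. No untreated, unsorted or YFP-negative group was analysed here, so the values are levels in the sorted samples and not effects of captopril, salt or sorting. Samples were labelled as not pooled, but not as separate animals, so p-values rest on the spread between these samples. The limma fit moderates that spread toward a trend over all genes. Printed SEs and p-values hold this moderation, and SDs do not.

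Wnt proteins are secreted, lipid-modified ligands that bind Frizzled receptors together with the co-receptors LRP5 and LRP6. In the canonical branch, receptor activation stops a complex built on Axin from degrading beta-catenin, which then acts with TCF/LEF factors on target genes. Hedgehog ligands bind Patched, which releases Smoothened from repression and changes the Gli transcription factors. Both pathways are known for their roles in nephron formation and in the stroma of the developing kidney.

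Of the 62 member genes, 21 (33.9%) were above background, against 37.3% of all genes, so as a whole the members were called at a share near that of the array. They were 18 Wnt genes, among them Dkk2, Sfrp1, Fzd7 and Ctnnb1, and 3 Hedgehog genes, Ptch1, Smo and Gli1. The level that stood for background was taken per array from olfactory receptor genes, at their 95th percentile, and was 6.20, 6.32 and 6.50 in replicates 2, 4 and 5, and limma's one-sided test asked whether a gene's mean log2 signal lay above it, at a Benjamini-Hochberg adjusted p under 0.05 over all genes. At an unadjusted p under 0.05, 24 of the 62 members passed, against 40.6% of all genes. The median member lay at -0.06 relative to the level and the median gene at -0.01. Means under the level were found for 34 members, against 50.4% of all genes, and 27 members were above it in all 3 arrays, against 41.9% of all genes. A log2 signal also depends on the affinity of its probes, so levels of different genes were not ranked against each other. Which sorted cells held a transcript cannot be read from a call, and in such bulk samples fewer cells of a type cannot be told apart from less RNA per cell.

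The called share differed between the role groups of the members, as counts without a test of the difference. Receptors, beta-catenin partners and the Patched, Smoothened and Gli genes lay over the share of all genes, and ligands, R-spondins and Lgr receptors lay under it, at the olfactory 95th percentile. The counts were 3 of 19 Wnt ligands, 7 of 13 Frizzled and LRP genes and 3 of 8 secreted antagonists. Fzd10os, not a receptor gene, was among those 13 and was not called. Further counts were 1 of 7 R-spondin and Lgr genes, and 4 of 6 genes of beta-catenin, Axin and TCF/LEF. For Hedgehog, 0 of 4 ligand and Hhip genes passed (1 at an unadjusted p under 0.05) and 3 of 5 Patched, Smoothened and Gli genes did. The side of the all-gene share turned for some of these groups with the level: Patched, Smoothened and Gli genes were 0 of 5 against 16.6% at the olfactory 99th percentile and 3 of 5 against 66% with a level from vomeronasal receptor genes, where Hedgehog ligands and Hhip were 3 of 4. With a level from keratin-associated protein genes, receptors, beta-catenin partners and the Patched, Smoothened and Gli genes were all under that share, with 0 called in each group. Lists of other pathway genes, described below, did not all take the sides of the member groups. Wnt co-receptors and alternative receptors (20%), planar polarity (22.2%) and both Hedgehog lists (33.3% and 25%) lay under the share of all genes. Wnt ligand release and modification (66.7%), the destruction complex with Dishevelled (81.2%) and nuclear partners (45.5%) lay over it.

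**Figure D1:**
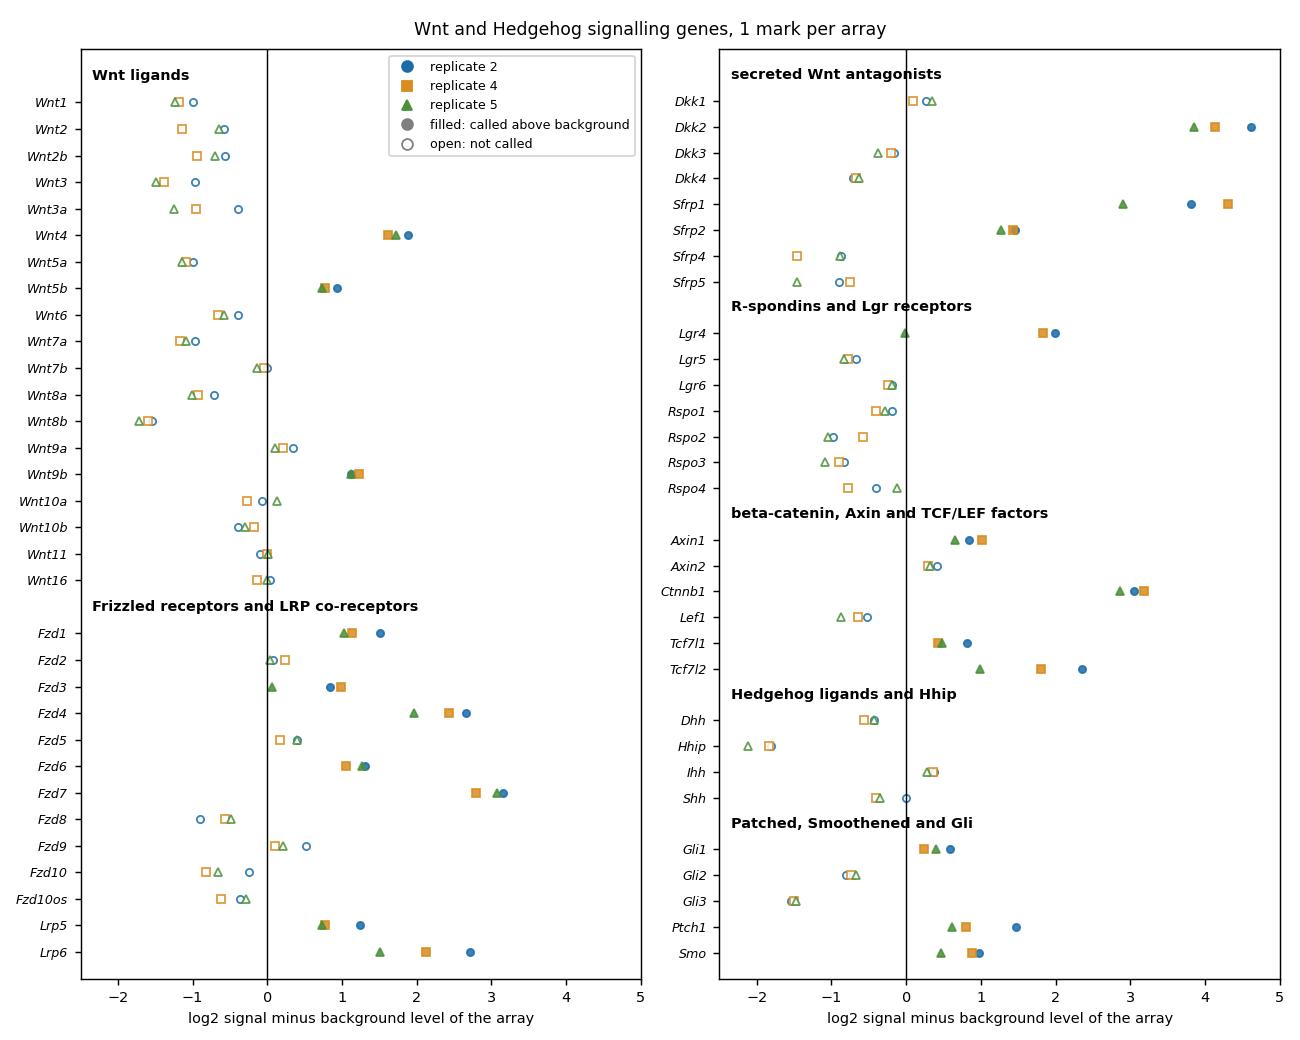
Log2 signal minus the array's background level (horizontal axis, vertical line at 0) for each of the 62 member genes, with 1 mark per array and filled marks for genes called above background. The 3 marks of Dkk2 lie between 3.85 and 4.61, while all marks of the R-spondin genes lie left of the line.

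**Figure D2:**
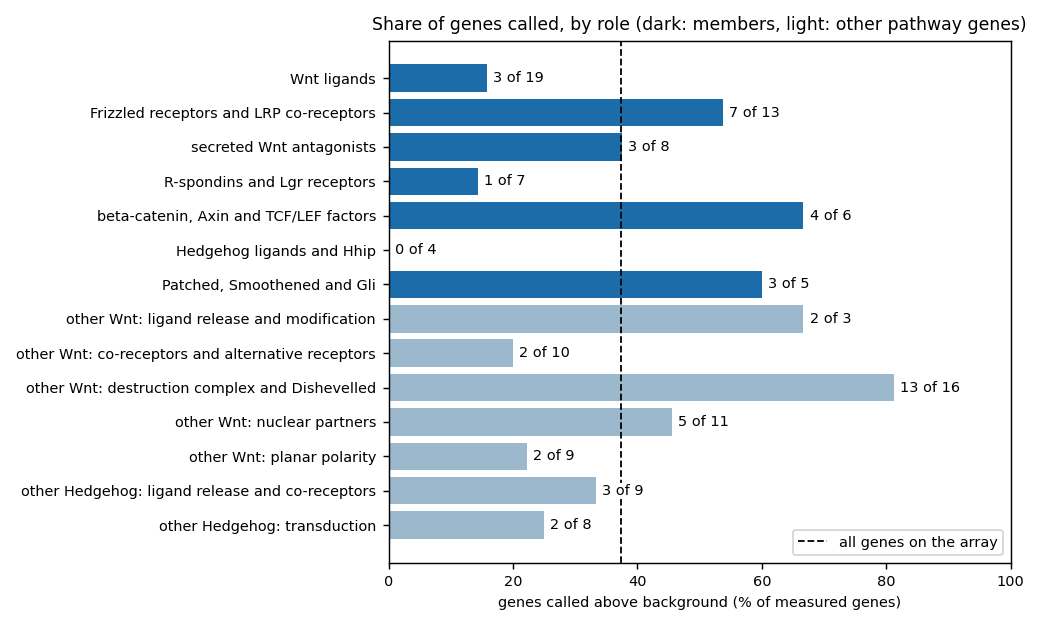
Percent of measured genes called above background (bars, horizontal axis) for each role among the members (dark) and in lists of other pathway genes (light), with the counts beside the bars. The dashed line marks 37.3%, the share of all genes, and the bar for Hedgehog ligands and Hhip is at 0 of 4.

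Promoter sequences are shown because the report turns on their genes: Dkk2, an antagonist gene called under every planned setting, and Axin2 and Ptch1, feedback genes of the respective pathways. Axin2 and Ptch1 fell on opposite sides of the threshold in the main fit, but not in every other setting, as given below. Each sequence is the 250 bases before the annotated start from RefSeq (GRCm38.p6), read 5′ to 3′ on the gene's strand, with matches to the motifs below in capitals. The regions are chr3:132085042-132085291 (plus strand), chr11:108920099-108920348 (plus strand) and chr13:63565736-63565985 (minus strand).
Dkk2: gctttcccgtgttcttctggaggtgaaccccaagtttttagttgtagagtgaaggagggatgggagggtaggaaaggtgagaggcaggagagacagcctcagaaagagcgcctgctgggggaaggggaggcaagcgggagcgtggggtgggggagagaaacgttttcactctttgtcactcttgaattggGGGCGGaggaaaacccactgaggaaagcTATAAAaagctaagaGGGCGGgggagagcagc
Axin2: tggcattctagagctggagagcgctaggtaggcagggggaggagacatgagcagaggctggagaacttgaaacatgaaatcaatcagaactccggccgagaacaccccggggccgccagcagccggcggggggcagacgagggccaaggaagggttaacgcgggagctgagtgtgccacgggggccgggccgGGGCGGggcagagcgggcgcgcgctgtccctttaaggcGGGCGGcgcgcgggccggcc
Ptch1: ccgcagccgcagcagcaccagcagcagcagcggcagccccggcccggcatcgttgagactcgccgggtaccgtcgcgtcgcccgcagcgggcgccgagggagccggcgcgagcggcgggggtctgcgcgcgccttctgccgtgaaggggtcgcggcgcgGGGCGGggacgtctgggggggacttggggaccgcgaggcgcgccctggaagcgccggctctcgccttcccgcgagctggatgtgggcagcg
The capitals mark GGGCGG, the GC box, in all of these promoters, and in Dkk2 also TATAAA, the TATA motif, which starts 32 bases before the gene's start. Both strands were searched, and the motifs did not overlap one another in these windows. The GC box was found in 32 of 41 member genes that had a promoter sequence (36 of 49 promoters), and in 32.7% of all promoters of this length. TATAAA was found in 7 of the 41 genes (7 of 49 promoters), and in 12.4% of all promoters. The core TCF/LEF motif, CTTTGAT or CTTTGAA, lay in the promoters of Dkk1, Wnt11 and Wnt5b (3 of 49 promoters), and in 7.48% of all promoters. The GLI motif GACCACCCA was in none of the 49 member promoters, and in 0.225% of all promoters. A match is a description of letters in this window and no evidence of binding.

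Among the ligands, the genes called were Wnt4, Wnt9b and Wnt5b. Wnt4, whose product drives the conversion of mesenchyme to nephron epithelium in development, had log2 signals of 8.09, 7.93 and 8.22 in replicates 2, 4 and 5 (the order used throughout), a mean of 8.08 ± 0.15 (SD, n = 3 here and below). That mean was 1.74 above the level (SE 0.22, limma adjusted p = 0.000189). The arrays lay close together, all above the level. The other Wnt4 probe set read 5.86, 5.63 and 6.13, under the level in each array, so the printed height rests on the brighter of the pair. With the mean of both probe sets, Wnt4 was still called, at 0.65 above the level (limma adjusted p = 0.00868). Wnt4 was the one member gene with more than 1 probe set.

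Wnt9b, the ureteric bud signal that acts ahead of Wnt4 in nephron induction, read 7.32, 7.54 and 7.62, 1.15 above the level (limma adjusted p = 0.000825). Wnt5b, a ligand mostly linked to beta-catenin-independent signalling, read 7.14, 7.09 and 7.23, 0.81 above the level (limma adjusted p = 0.00341). For both genes every array was above the level and the arrays differed by at most 0.30 log2 units. The other 16 ligands had means from 4.72 (Wnt8b) to 6.56 (Wnt9a), and 12 of them were under the level in every array. Wnt5a (5.27 ± 0.08), Wnt7b (6.28 ± 0.08), a collecting duct ligand, Wnt11 (6.31 ± 0.20) and Wnt2b (5.61 ± 0.22) were among those with means under it. Wnt9a was above the level in all 3 arrays but did not pass (limma adjusted p = 0.208).

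The receptor genes Fzd7, Fzd4, Lrp6, Fzd1, Fzd6, Lrp5 and Fzd3 were above background, so both LRP co-receptors of canonical signalling passed. Fzd7 had signals of 9.36, 9.12 and 9.58, 3.01 above the level (SE 0.24, limma adjusted p = 1.78e-05). Fzd4, which also serves as the receptor for Norrin in blood vessel growth, read 8.86, 8.75 and 8.47, 2.35 above the level (SE 0.25, limma adjusted p = 8.11e-05). All arrays of both genes lay at least 1.97 above the level.

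Lrp6 read 8.92, 8.44 and 8.01, with a mean 2.11 above the level (SE 0.28, limma adjusted p = 0.000281), and its paralog Lrp5 read 7.44, 7.09 and 7.24, 0.91 above it (limma adjusted p = 0.00318). Replicate 2 was the highest array for both co-receptors. Fzd1 read 7.71, 7.45 and 7.53 (limma adjusted p = 0.000935) and Fzd6, a receptor of planar cell polarity, 7.51, 7.37 and 7.77 (limma adjusted p = 0.000762), each with a narrow spread.

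Fzd3, also a planar polarity receptor, read 7.04, 7.30 and 6.57, and its replicate 5 stood 0.07 above the level, against 0.84 and 0.98 in the others. Its call (limma adjusted p = 0.0279) was lost when replicate 2 or 4 was left out (limma adjusted p of 0.133 and 0.141). The remaining Frizzled genes did not pass. Fzd5 read 6.60, 6.49 and 6.90 (limma adjusted p = 0.0842), above the level in every array and among the 3 uncalled members nearest the threshold. Fzd9 (6.62 ± 0.17) and Fzd2 (6.46 ± 0.15) were also above it in every array, and Fzd8 (5.69 ± 0.37), Fzd10 (5.77 ± 0.24) and the opposite-strand Fzd10os (5.92 ± 0.27) were under it in every array.

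Of the 8 secreted antagonists, Dkk2, Sfrp1 and Sfrp2 were called, Dkk1 lay above the level without passing, and Dkk3, Dkk4, Sfrp4 and Sfrp5 had means under it. The called share, 37.5%, was that of all genes to within a percentage point. Dkk2 encodes a Dickkopf protein that binds LRP5 and LRP6, and its promoter with a TATA motif is printed above. It had signals of 10.81, 10.45 and 10.36, 4.20 above the level (SE 0.25, limma adjusted p = 3.09e-06). Replicate 2 was the highest of the arrays, which differed by 0.45. Sfrp1, a secreted Frizzled-related protein that binds Wnt ligands, read 10.01, 10.63 and 9.40, 3.67 above the level (SE 0.31, limma adjusted p = 2.27e-05), with replicate 4 high and replicate 5 low.

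Sfrp2, of the same family, read 7.65, 7.75 and 7.77, 1.38 above the level (limma adjusted p = 0.000431), and its arrays differed by 0.12. The other antagonists did not pass. Dkk1, a target of canonical signalling in many tissues, read 6.46, 6.40 and 6.85 (limma adjusted p = 0.183), above the level in each array. Dkk3 (6.09 ± 0.05), Dkk4 (5.67 ± 0.19), Sfrp4 (5.26 ± 0.38) and Sfrp5 (5.30 ± 0.26) were under it in every array.

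R-spondins are secreted proteins that raise Wnt receptor levels through the Lgr receptors. Lgr4 was called, with signals of 8.20, 8.16 and 6.48. Replicates 2 and 4 were 2.00 and 1.84 above the level while replicate 5 was at -0.02 relative to it, so the mean of 1.27 above the level (SE 0.38, limma adjusted p = 0.0153) came from those arrays. Without replicate 2 the call was lost (limma adjusted p = 0.100). Rspo1 (6.05 ± 0.15), Rspo2 (5.47 ± 0.26), Rspo3 (5.40 ± 0.03) and Rspo4 (5.91 ± 0.43) were under the level in all 3 arrays. So were Lgr5 (5.58 ± 0.08), a marker of stem cells in several epithelia, and Lgr6 (6.13 ± 0.16).

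Inside the cell, Ctnnb1, Tcf7l2, Axin1 and Tcf7l1 were above background and Axin2 and Lef1 were not. Ctnnb1, the gene of beta-catenin, which also joins cadherins to the cytoskeleton, read 9.26, 9.50 and 9.36, 3.03 above the level (SE 0.24, limma adjusted p = 1.66e-05). The arrays were close to each other. Tcf7l2, a TCF factor of canonical signalling, read 8.55, 8.12 and 7.50, 1.72 above the level (SE 0.29, limma adjusted p = 0.000936), with replicate 2 high and replicate 5 low.

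Axin1, the scaffold of the destruction complex, read 7.04, 7.34 and 7.16 (limma adjusted p = 0.00338). Tcf7l1, a TCF factor known mostly as a repressor, read 7.02, 6.74 and 6.98 (limma adjusted p = 0.0156), a call that was lost when replicate 2 or 4 was left out (limma adjusted p of 0.0946 and 0.0525). Without replicate 4 its mean was higher, 0.65 above the level against 0.57 with all arrays, and its SE was larger, 0.30 against 0.17. Axin2 is a feedback inhibitor widely used as a readout of canonical signalling, and its promoter is printed above. It read 6.61, 6.61 and 6.82, 0.34 above the level with every array above it, and did not pass (limma adjusted p = 0.067). Lef1, which is both a partner and a target of beta-catenin, read 5.68, 5.67 and 5.63, under the level in every array.

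In the Hedgehog group, the receptor Ptch1, the transducer Smo and the transcription factor Gli1 were above background and no ligand was. Ptch1, which is itself induced by the pathway and whose promoter is printed above, read 7.67, 7.11 and 7.11, 0.96 above the level (SE 0.22, limma adjusted p = 0.0048). Replicate 2 stood 0.55 over the other arrays, which held the same value. The call of Ptch1 was lost at the olfactory 99th percentile, where its mean was 0.093 above the level. Smo read 7.17, 7.20 and 6.96, 0.77 above the level (SE 0.19, limma adjusted p = 0.00609), with all arrays above it. Gli1, a target gene and amplifier of the pathway, read 6.78, 6.56 and 6.91, 0.41 above the level, and lay nearest the threshold among the called members (limma adjusted p = 0.0447). Its call was lost without replicate 2, 4 or 5 (limma adjusted p = 0.195, 0.112 and 0.0700). Without replicate 4 the mean of Gli1 was higher, 0.49 above the level, and its SE was larger, 0.28 against 0.16 with all arrays.

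Gli2 (5.60 ± 0.21) and Gli3 (4.84 ± 0.19), the main activator and repressor among the Gli factors, were under the level in every array. Among the ligands, Ihh, known from cartilage and gut, read 6.58, 6.68 and 6.78, above the level in every array without passing (limma adjusted p = 0.0666). Ihh passed in the same other settings as Axin2. Shh (6.09 ± 0.15), which collecting duct and ureter epithelium secrete in development, and Dhh (5.86 ± 0.18) had means under the level. Hhip, a membrane protein that binds Hedgehog ligands and is also induced by the pathway, read 4.39, 4.48 and 4.39, -1.92 relative to the level.

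Other genes of both pathways were counted from fixed lists, and 29 of 66 measured genes (43.9%) were called, against 37.3% of all genes. The machinery that degrades beta-catenin, with the Dishevelled proteins, passed in 13 of 16 cases. Csnk1a1 (9.35 ± 0.35), a casein kinase that primes beta-catenin, Gsk3a (8.90 ± 0.38) and Gsk3b (8.55 ± 0.47), the kinases that complete its marking, and Tnks2 (8.63 ± 0.48), a tankyrase that turns Axin over, were among them, while Nkd2 (5.44 ± 0.21) was under the level. Wls, the carrier that brings Wnt proteins to the cell surface, was called at 9.96 ± 0.17 (3.62 above the level, limma adjusted p = 7.45e-06). Porcn (7.17 ± 0.05), the enzyme that attaches their lipid, was also called, and Notum (6.37 ± 0.19), which removes it, was not.

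Of 10 co-receptors and alternative receptors 2 passed, Gpc4 (8.60 ± 0.30), a cell-surface proteoglycan, and Ryk (8.01 ± 0.21), a Wnt receptor related to kinases, and Znrf3 (5.76 ± 0.44), which removes Frizzled from the membrane, had a mean under the level. Nuclear partners passed in 5 of 11 cases, with Bcl9 (7.68 ± 0.62), a co-activator that binds beta-catenin, Cby1 (7.31 ± 0.54), Bcl9l (7.29 ± 0.14) and Tle3 (6.84 ± 0.07) called and Tle4 (5.83 ± 0.29) under the level. In planar polarity 2 of 9 passed, Daam1 (7.29 ± 0.17) and Vangl1 (7.07 ± 0.28), and Celsr3 (5.40 ± 0.08) did not. For Hedgehog, 3 of 9 genes of ligand release and co-receptors passed, Gas1 (6.90 ± 0.17), a co-receptor, Disp1 (6.89 ± 0.02), which releases the ligands, and Scube1 (6.78 ± 0.42), and Cdon (4.95 ± 0.27), another co-receptor, was under the level. In transduction 2 of 8 measured genes passed, Kif3a (7.14 ± 0.47), a motor of the primary cilium, and Evc (7.14 ± 0.21), and Gpr161 (5.90 ± 0.24) did not. Grk2 was not analysed here.

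The arrays differed more in some members than in others. Over the 21 called members the median SD between arrays was 0.18 on the log2 scale, from 0.06 for Sfrp2 to 0.98 for Lgr4, and it was 0.27 over all called genes. The highest array exceeded the lowest by over 1 log2 unit in 3 of 21 called members (14.3%), against 13.7% of all called genes. These were Lgr4 (1.71), Sfrp1 (1.23) and Tcf7l2 (1.05). After quantile normalization the ranges were 1.67, 0.93 and 0.88, so that Lgr4 alone exceeded 1. Replicate 5 was the lowest array in each of these genes, and it was the lowest, leaving out a tie in Ptch1, in 8 of the 21 called members (38.1%) and in 52.8% of all called genes. Single arrays were set against each other here, so these differences have no test.

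**Figure D3:**
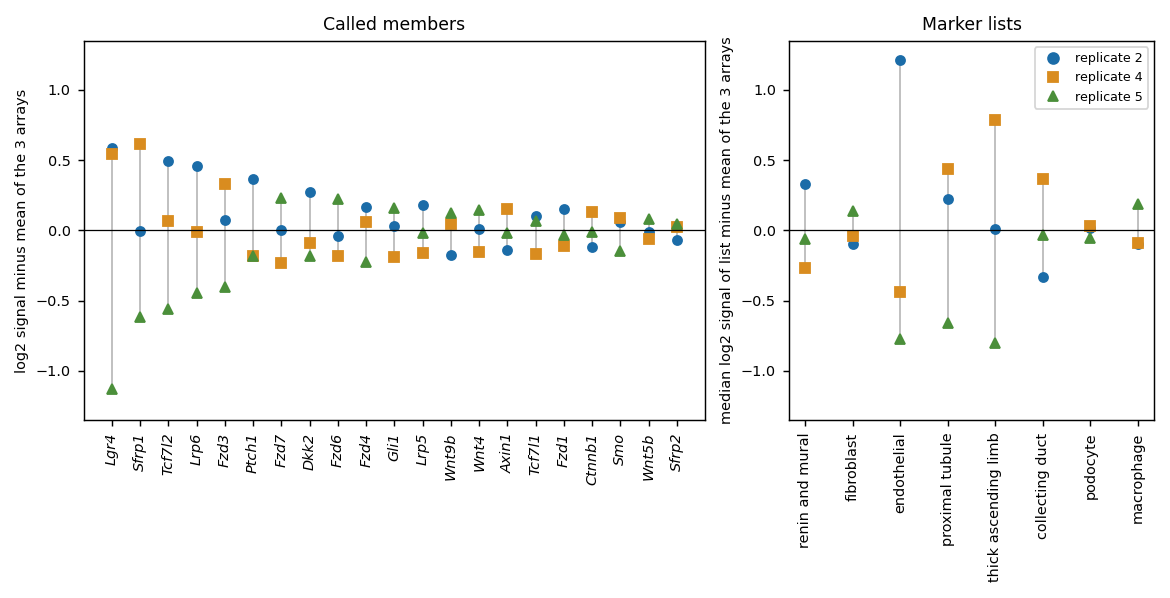
Left, log2 signal of each called member minus its mean over the 3 arrays, ordered by the range between arrays, and right, the median log2 signal of each marker list minus its mean over the arrays. Replicate 5 is lowest for Lgr4, Sfrp1 and Tcf7l2 and for the proximal tubule and thick ascending limb lists, and replicate 2 is highest for the endothelial list.

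Markers of other cells of the cortex were present and moved between the same arrays. The median proximal tubule marker lay 3.86 above the level and the median thick ascending limb marker 4.10, beside 4.43 for renin and mural markers. All 8 renin and mural markers were called, with Rgs5 at 12.37 and Gja5 at 11.34, but other mural cells share most of them and renin itself was not analysed here. The median log2 signal of these 8 markers was 11.11, 10.50 and 10.71, with summed linear signals of 22533, 18338 and 20525. Fzd1, Lrp5 and Tcf7l1 had this order too, highest in replicate 2 and lowest in replicate 4. All 8 proximal tubule markers were also called, and their median log2 signal was 10.44, 10.65 and 9.56, with summed linear signals of 18594, 19554 and 15247. All 5 thick ascending limb markers were called, at medians of 10.47, 11.24 and 9.65 and sums of 8989, 11931 and 6245. Among called members, Fzd3, Sfrp1 and Smo had the same order over the arrays as the proximal tubule and limb lists, highest in replicate 4 and lowest in replicate 5. Of 8 endothelial markers 5 were called, at medians of 8.70, 7.04 and 6.71 and sums of 3709, 1456 and 1308. The 5 called members Dkk2, Fzd4, Lgr4, Lrp6 and Tcf7l2 were ordered alike, highest in replicate 2 and lowest in replicate 5. Gja5 (11.70, 11.25 and 11.07), Pdgfrb (8.29, 7.87 and 7.54) and Acta2 of the renin and mural list had that order as well. In the same list, Rgs5 (12.39, 12.26 and 12.46) was highest in replicate 5 and lowest in replicate 4. The 5 called members Fzd6, Fzd7, Gli1, Wnt4 and Wnt5b had the order of Rgs5. Myh11 and Mcam had the order of the renin and mural median, and Notch3 and Abcc9 that of the proximal tubule and limb lists. Among 6 collecting duct markers all were called, at medians of 7.42, 8.11 and 7.72 and sums of 2795, 3299 and 3762, so the median was highest in replicate 4 and the sum in replicate 5. Axin1 and Ctnnb1 had the order of that median, and Sfrp2 and Wnt9b the order of that sum. The share of all called genes in each of these orders was not counted, and replicate 5 was the lowest array in 52.8% of all called genes. A shared order therefore does not assign a member to a cell type. The part of the cells marked by these lists in the members' signals was not tested.

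Fibroblast markers passed in 3 of 6 cases, Cd248 (9.23), Col1a1 (7.78) and Col1a2 (7.81), while Lum (4.11), Dcn (5.29) and Pdgfra (6.08) had means under the level. The list's median was 6.81, 6.86 and 7.04, highest in replicate 5, and its sum 1399, 1112 and 1066, highest in replicate 2. Macrophage markers passed in 2 of 6 cases, Cx3cr1 (7.65) and Tyrobp (6.73), with Adgre1 (4.92), Csf1r (5.89) and Ptprc (5.60) under the level in every array and Cd68 at 6.43. Podocyte markers passed in 0 of 5 cases by limma's test (0 at an unadjusted p under 0.05), with Nphs1 at 6.27.

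The number of called members moved with the background level. With the 99th percentile of olfactory receptor genes 7 members were called, and with a level from vomeronasal receptor genes 41, where 16.6% and 66% of all genes were called. With the 90th percentile 31 were called (50% of all genes), and with a level from keratin-associated protein genes 1, Dkk2 (3.56% of all genes). With the mean of probe sets and with quantile normalization 21 were called (37.1% and 37.7% of all genes). With no trend in the fit 23 were called (37.3% of all genes), and without the 25% of genes lowest in signal 23 (51.8% of the genes left). Without replicate 2, 4 or 5 there were 17, 18 and 20 (30.4%, 32.1% and 39.2% of all genes). The 7 genes Ctnnb1, Dkk2, Fzd4, Fzd7, Lrp6, Sfrp1 and Wnt4 were called in each of the 10 planned settings, and the other 14 called members were lost in at least 1. Of these 14, Gli1 was called in 6 settings, Fzd3 and Tcf7l1 in 7 and Lgr4 in 8. The rest were called in 9 and lost only at the olfactory 99th percentile.

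**Figure D4:**
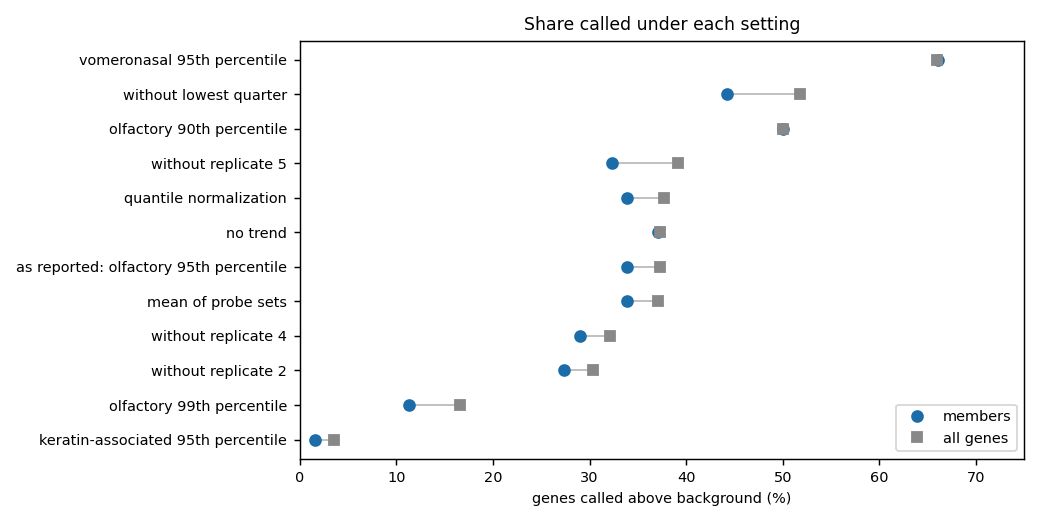
Percent of genes called above background (horizontal axis) for the members (circles) and for all genes (squares) under each setting, in the order of the share of all genes. The members' share moves with that of all genes, from 11.3% at the olfactory 99th percentile to 66.1% at the vomeronasal level among the planned settings.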

How the data were processed

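The values were 1 log2 signal per probe set and array, as deposited. Affymetrix Expression Console is the tool in the submitters' processing notes. How it summarised probes and normalized arrays is not given in the sources used here. No source states the log base, and a range of 2.21 to 13.96 with array medians of 6.09, 6.11 and 6.21 led to log2. The number of arrays, 3, limits the precision. RNA was amplified in 1 round and labelled with biotin, per the labels. Of 35557 probe sets, 21789 had 1 symbol in the platform annotation, 1621 had several and 12147 were not listed there, and those without exactly 1 were left out. For genes with several probe sets the brightest was taken. Signals minus the array's background level (95th percentile of 1027 olfactory receptor genes) entered an intercept fit by limma 3.58.1 (R 4.3.3, eBayes with a trend), with a one-sided test above 0 and Benjamini-Hochberg adjustment over 19938 genes at 0.05, after a test on simulated data. The members and lists were chosen with earlier results of these data known. Called members, those with discordant probe sets and the 3 uncalled members nearest the threshold were given in every array, and of each other pathway list up to 4 called genes of highest signal and the lowest gene. Alternatives were other percentiles and families for the level, the mean of probe sets, quantile normalization, no trend, the lowest 25% of genes left out and each replicate left out. Promoters came from RefSeq tables, and no probe coordinates are printed, as no source names the array's genome build.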

Additional observations from a re-analysis of the deposited data

How the results depend on the processing

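The count of 21 called members stayed within 1.5 times of itself with the mean of probe sets (21), quantile normalization (21), no trend (23), the lowest 25% of genes left out (23) and the olfactory 90th percentile (31), and it was 17 to 20 with a replicate left out. At the olfactory 99th percentile it was 7, with 3303 genes called in all and a members' median of -0.93 relative to the level. There 1 Wnt ligand, 3 Frizzled and LRP genes, 0 R-spondin and Lgr genes, 1 gene of the beta-catenin group and 0 of Patched, Smoothened and Gli remained above the threshold, with 10 other pathway genes, and 1 called member had an array range over 1. Means then under the level were those of Axin1 (-0.023), Axin2 (-0.52), Fzd3 (-0.23), Fzd5 (-0.54), Gli1 (-0.45), Ihh (-0.52), Smo (-0.092), Tcf7l1 (-0.29) and Wnt5b (-0.053). At the 90th percentile 7 Wnt ligands, 1 Hedgehog ligand and 44 other pathway genes were called, with a median of 0.30. The vomeronasal level gave 41 members and 13165 genes, with 10 Wnt ligands, 11 Frizzled and LRP genes, 5 antagonists, 4 R-spondin and Lgr genes, 3 Hedgehog ligands and 60 other pathway genes, and a median of 0.77. Without the lowest 25% of genes the median was 0.22 over the 52 members left, and 1 Hedgehog ligand was called, as with no trend (1).

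A level from keratin-associated protein genes, added after the data were seen, left 1 member (Dkk2), 709 genes and 0 other pathway genes, and a median of -2.39. By role it left 1 antagonist and 0 in the other groups, and 0 members with a range over 1. Under that level the means of Axin1 (-1.49), Axin2 (-1.99), Fzd1 (-1.10), Fzd3 (-1.70), Fzd5 (-2.01), Fzd6 (-1.12), Gli1 (-1.92), Ihh (-1.99), Lgr4 (-1.06), Lrp5 (-1.41), Lrp6 (-0.21), Ptch1 (-1.37), Sfrp2 (-0.94), Smo (-1.55), Tcf7l1 (-1.75), Tcf7l2 (-0.61), Wnt4 (-0.59), Wnt5b (-1.52) and Wnt9b (-1.17) lay below it. With a replicate left out, called R-spondin and Lgr genes numbered 0 to 1, and called members with an array range over 1 numbered 0 to 2 (1 without replicate 2, 2 without replicate 4 and 0 without replicate 5), where fewer arrays narrow the range. Quantile normalization left 1 such member, Lgr4, and the cause was not tested. Levels at other percentiles or families change counts by construction. No paired analysis was possible because the series has 1 group. The calls of Gli1, Fzd3, Tcf7l1 and Lgr4, whose means were 0.41, 0.63, 0.57 and 1.27 above the level, were lost in at least 1 fit without a replicate.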

Other observations

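Some Wnt genes are neighbours among protein-coding genes of the RefSeq annotation, and 4 such pairs were measured. In the pair of Wnt9b and Wnt3 on chromosome 11, Wnt9b was called (7.50 ± 0.16) and Wnt3 was under the level in every array (5.06 ± 0.15). In the pairs of Wnt6 (5.79) with Wnt10a (6.27), Wnt3a (5.48) with Wnt9a (6.56), and Wnt10b (6.05) with Wnt1 (5.20), neither gene was called.

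The deposited values of Ptch1 were equal in replicates 4 and 5 to all 5 decimals given, and those of Fzd9 in replicates 2 and 5. Such a tie occurred in 197 of 35557 probe sets (0.554%). The SD of a tied gene rests on its remaining array.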
